A study of Arabidopsis thaliana with 6 samples.

Results

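Small nucleolar RNA (snoRNA) genes and spliceosomal small nuclear RNA (snRNA) genes of *Arabidopsis thaliana* were examined as sources of small RNA (sRNA) reads. Members were the sRNA clusters, genomic intervals in which sRNA reads were counted, that shared at least 1 base with an annotated snoRNA or snRNA gene and none with a tRNA or rRNA gene. The rule gave 162 of the 17131 clusters in the tables, 120 at snoRNA genes and 42 at snRNA genes, and no cluster lay at both kinds. A further 10 clusters at snoRNA genes were left out because they also lay at a tRNA or rRNA gene.

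sRNA was sequenced from rosette leaves of Col-0 plants at bolting, grown at 22 °C in a 12-h day. The 4 wild type plants came from negative transformation events, and the 2 *msh1* memory plants were first-generation progeny that had lost an *MSH1*-RNAi transgene and kept the altered growth. The MSH1 protein acts in plastids and mitochondria. According to the methods, first-generation memory plants were full sibs of 1 family, so memory and family cannot be told apart. Libraries held between 7966799 and 18134284 counts, and memory replicate 2 was the shallowest.

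snoRNAs work in the nucleolus, where box C/D snoRNAs guide 2′-O-methylation and box H/ACA snoRNAs guide pseudouridylation of ribosomal RNA, and U3 takes part in cleaving its precursor. In plants many snoRNAs are made from polycistronic precursors that carry several snoRNAs each, and others lie in introns. The spliceosomal snRNAs recognize the 5′ splice site (U1 and U6) and the branch point (U2) and, with U4 and U5, form the core of the spliceosome, and plant snRNA genes carry an upstream sequence element and a TATA box ahead of the start. sRNA reads at such genes can come from fragments of the mature RNA, from its precursor or from any other transcript of the interval, and the tables, which held neither strand nor read length, do not tell these apart.

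The sequences below are a selection of snoRNA genes from clusters with small p-values or high levels, and not every gene of these clusters is shown. They were read from the RefSeq genome (TAIR10.1), 5′ to 3′ on the strand of the gene. In genes that hold both, capitals mark box C (TGATGA within the first 25 bases) and box D (CTGA within the last 25 bases). For AtsnoR5a they mark the ACA that stands 3 bases from the end of a box H/ACA snoRNA. The first sequence and the AtsnoR5a sequence belong to 1 cluster and AtU31b to a neighbouring duplicate, AT2G20721 to AT2G20723 form another cluster, and AtsnoR29-1, SNOR30 and AtsnoR31 another. Neither snoR121 nor AtsnoR43.11 had the strict box C motif at its start, so both are in lower case throughout. snoR121 does hold CTGA within its last 25 bases.
AtU31a (chr1:10300351-10300453, plus strand): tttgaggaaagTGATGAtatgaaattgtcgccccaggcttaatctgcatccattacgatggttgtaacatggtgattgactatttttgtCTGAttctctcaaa
AtU31b (chr1:10308751-10308840, plus strand): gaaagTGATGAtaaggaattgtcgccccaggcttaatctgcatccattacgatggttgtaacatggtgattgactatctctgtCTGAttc
AtsnoR5a (chr1:10300882-10301021, plus strand): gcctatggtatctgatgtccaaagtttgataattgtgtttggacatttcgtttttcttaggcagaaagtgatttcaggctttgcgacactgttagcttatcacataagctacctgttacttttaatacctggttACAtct
AT2G20721 (chr2:8931565-8931655, minus strand): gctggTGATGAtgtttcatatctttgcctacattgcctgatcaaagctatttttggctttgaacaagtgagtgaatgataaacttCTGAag
AT2G20722 (chr2:8931708-8931782, minus strand): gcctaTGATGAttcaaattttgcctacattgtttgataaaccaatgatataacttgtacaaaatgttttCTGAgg
AT2G20723 (chr2:8931849-8931922, minus strand): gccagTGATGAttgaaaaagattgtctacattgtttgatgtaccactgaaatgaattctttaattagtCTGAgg
AtsnoR29-1 (chr5:20795723-20795828, plus strand): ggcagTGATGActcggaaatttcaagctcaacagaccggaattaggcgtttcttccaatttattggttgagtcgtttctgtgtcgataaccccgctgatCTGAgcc
SNOR30 (chr5:20795936-20796051, plus strand): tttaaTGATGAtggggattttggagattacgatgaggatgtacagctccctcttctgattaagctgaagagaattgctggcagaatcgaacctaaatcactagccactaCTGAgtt
AtsnoR31 (chr5:20796128-20796227, plus strand): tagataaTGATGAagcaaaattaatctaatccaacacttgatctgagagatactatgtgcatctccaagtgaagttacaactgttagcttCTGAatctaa
snoR121 (chr3:5387184-5387268, plus strand): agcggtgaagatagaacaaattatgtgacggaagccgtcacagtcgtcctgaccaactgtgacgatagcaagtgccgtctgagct
AtsnoR43.11 (chr1:2156221-2156306, minus strand): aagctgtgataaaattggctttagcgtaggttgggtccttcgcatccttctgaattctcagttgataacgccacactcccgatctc

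Most snoRNA genes lay in a cluster. Of 287 annotated snoRNA genes, 253 lay in member clusters and 23 in no cluster. The width of the member clusters ran from 156 to 13986 bases (median 936), and snoRNA genes covered a median of 23.8% of a cluster. Only 11 clusters were covered to at least 50%, so most clusters also took in flanking sequence. A single snoRNA gene lay in 57 clusters and 63 held 2 or more, up to 6. Of the 253 genes, 181 lay outside protein-coding genes, 41 inside an intron of one and 31 over an exon. The box C and D motifs were found together in 105 of these genes and the ACA in 46. Of the 82 snRNA genes, 46 lay in member clusters and 36 in no cluster.

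snoRNA gene clusters took a smaller share of both memory libraries than of any wild type library. Their share of library counts was 0.294%, 0.329%, 0.262% and 0.291% in wild type replicates 1 to 4 and 0.187% and 0.119% in memory replicates 1 and 2. The groups did not overlap. The mean was 0.294% ± 0.0274 (SD, n = 4) in wild type and 0.153% ± 0.0479 (SD, n = 2) in memory, a ratio of 0.521. An exact permutation test (two-sided) gave p = 0.133, which is as small as 2 against 4 libraries allow. The 95% Wilson intervals, which cover counting error alone, were 0.184% to 0.189% in memory replicate 1 and 0.117% to 0.122% in memory replicate 2. With memory replicate 1 alone the ratio was 0.636, and with memory replicate 2 alone it was 0.406. Over the 11 clusters covered to at least 50% the groups overlapped. Fewer cells of a type and less RNA per cell cannot be told apart in whole leaves. Of other structural RNA, rRNA gene clusters took 30.7% to 36.9% of wild type and 34.6% and 40.8% of memory libraries, and tRNA gene clusters took 14.5% to 18.2% of wild type and 12.1% and 22.5% of memory libraries.

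**Figure D1:**
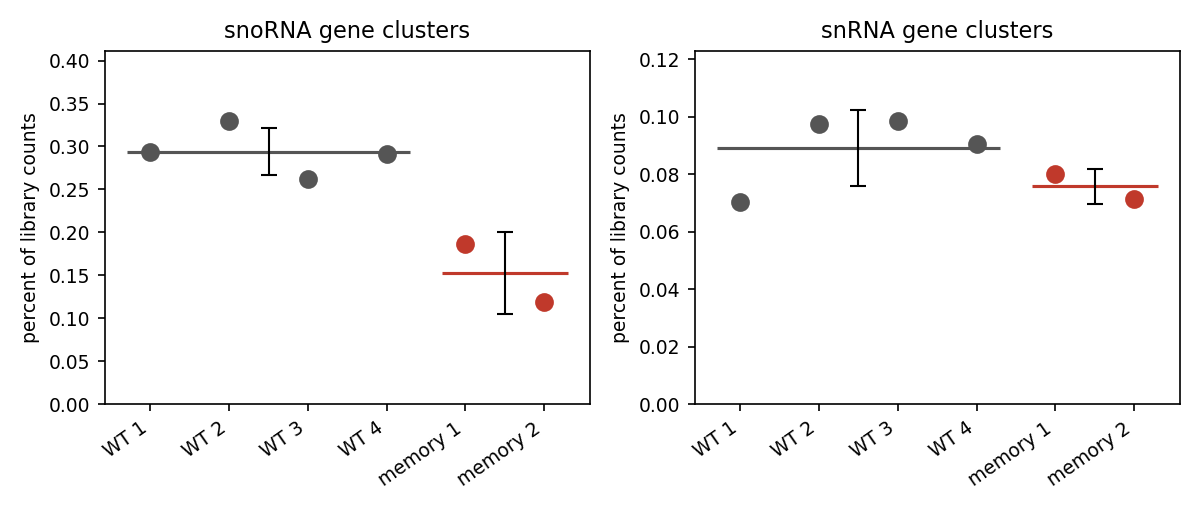
Share of library counts, in percent, at the 120 snoRNA gene clusters (left) and the 42 snRNA gene clusters (right) in each of the 6 libraries. Points are libraries, horizontal lines are group means and bars are SD (n = 4 wild type, n = 2 memory). Both memory libraries lie below all wild type libraries at snoRNA genes, while the groups overlap at snRNA genes.

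snRNA gene clusters held a similar share in the groups. It was 0.0702%, 0.0973%, 0.0983% and 0.0906% in wild type and 0.0800% and 0.0714% in memory, so that the memory values lay within the wild type range. The means were 0.0891% ± 0.0131 (SD, n = 4) and 0.0757% ± 0.00605 (SD, n = 2), a difference near the SD of the wild type libraries (exact permutation test, two-sided, p = 0.4).

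A test for each cluster called no member. The quasi-likelihood test of edgeR was fitted to all 15659 clusters that passed a filter on low counts, 112 at snoRNA genes and 40 at snRNA genes, and p-values were adjusted over all of them by the method of Benjamini and Hochberg. At an adjusted p below 0.05 it called 0 members, with 1 cluster called in all (0.00639% of those tested). At an unadjusted p below 0.05, 31 snoRNA gene clusters were lower in memory, where 5.56% of all tested clusters were, and 1 was higher, where 4.92% were. The 31 fell when memory replicate 2 was left out, but the share of all tested clusters in that fit is not given here. Among snRNA gene clusters 5 were lower and 1 was higher at this threshold. The 5 fell when wild type replicate 4 or either memory library was left out, again without the matching share of all tested clusters. DESeq2, which called 245 clusters (1.56% of those tested), called 8 snoRNA gene clusters, all lower in memory, and 3 snRNA gene clusters. The log2 fold change (memory over wild type) was below 0 in 90 of 112 snoRNA gene clusters. Its median was -0.55, with quartiles of -1.01 and -0.19, beside a median of -0.03 over all tested clusters. The median was -0.15 over the snRNA gene clusters, of which 24 of 40 were below 0. Scaling by library size alone moved the median of all clusters to -0.23 and that of snoRNA gene clusters to -0.72.

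**Figure D2:**
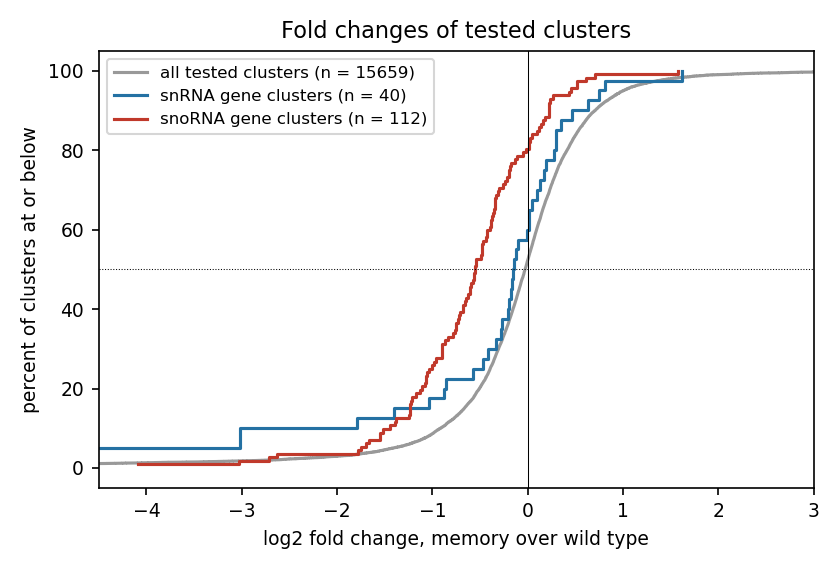
Cumulative distribution of the log2 fold change, memory over wild type, in edgeR for all 15659 tested clusters (grey), 40 snRNA gene clusters (blue) and 112 snoRNA gene clusters (red). The horizontal axis leaves out a few clusters at either end. The snoRNA curve lies to the left of the others, with a median of -0.55 beside -0.03 for all.

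Groups that did not overlap were frequent at snoRNA genes. In 48 of 112 tested snoRNA gene clusters (42.9%) both memory libraries lay below all wild type libraries, where 12.0% of all tested clusters did, and in 2 both lay above, where 10.1% did. Counted over all 120 snoRNA gene clusters, tested or not, 48 (40.0%) were lower in this way, where 11.5% of all clusters were. Each memory library showed it, since memory replicate 1 alone lay below all wild type libraries in 58 of 112 clusters (22.2% of all tested clusters did) and memory replicate 2 in 74 (30.9% did). Among snRNA gene clusters, 3 of 40 were lower and 2 were higher without overlap, against the same 12.0% and 10.1%. Clusters at tRNA genes, the other abundant structural RNA genes, had 32 lower without overlap (8.16% of those tested) and a median log2 fold change of -0.01.

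Lower levels were most frequent where several snoRNA genes shared a cluster. Both memory libraries lay below all wild type libraries in 28 of 39 tested clusters with 3 or more snoRNA genes, in 9 of 23 with 2 genes and in 11 of 50 with 1 gene. The median log2 fold changes were -0.68, -0.42 and -0.41 in that order. By box motif, 30 of 47 clusters with a box C and D gene and no ACA gene were lower without overlap, with a median of -0.86, and 7 of 28 clusters with an ACA gene and no box C and D gene, with a median of -0.35. Clusters at protein-coding genes (28 of 63, median -0.55) and clear of them (20 of 49, median -0.56) gave close shares. Clusters in which every snoRNA gene was free of repeated 24-base words gave 16 of 56 and a median of -0.38, and the remaining clusters 32 of 56 and a median of -0.58. These properties go together in the same clusters, and the differences between the subgroups were not tested. Across the 112 clusters the log2 fold change had a Spearman correlation of -0.155 with the mean level and -0.082 with the covered share, given as descriptions over clusters that share the 6 libraries.

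**Figure D3:**
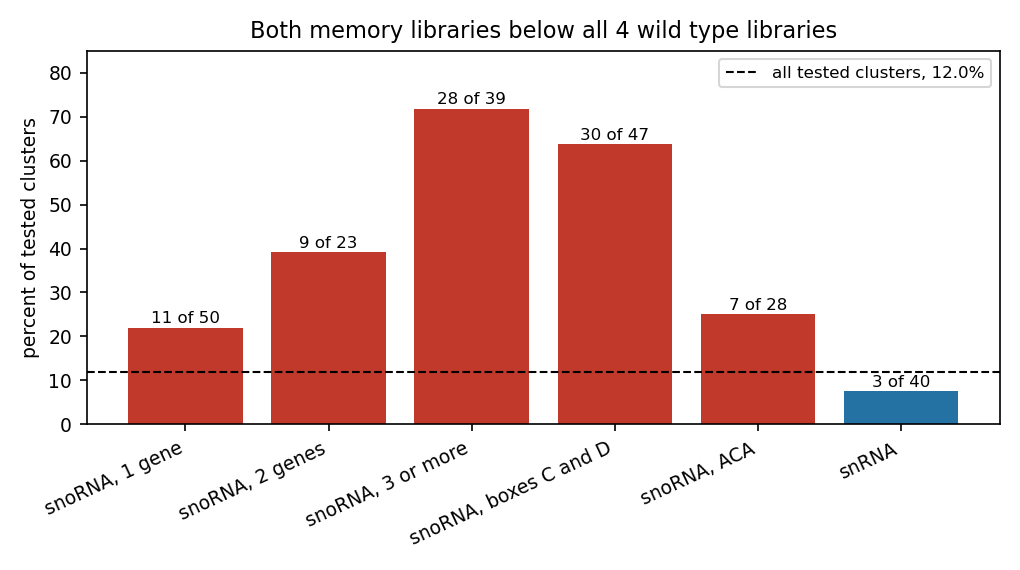
Percent of tested clusters in which both memory libraries lay below all 4 wild type libraries, by the number of snoRNA genes in the cluster, by box motif and for snRNA gene clusters, with the number of clusters above each bar. The dashed line is the 12.0% of all tested clusters. The bar for clusters with 3 or more snoRNA genes is the highest (28 of 39), and the snRNA bar (3 of 40) is below the line.

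Levels below are CPM, that is, counts per 1000000 after TMM scaling of each library, in the order of wild type replicates 1 to 4 and memory replicates 1 and 2. The 5 snoRNA gene clusters with the most counts held 55.9% of all snoRNA cluster counts. The highest, at chr1:10300213-10301649, held AtU31a, AtsnoR4a, AtU33a, AtU51a and AtsnoR5a, a run of box C/D genes (U31, U33 and U51 are methylation guides in other eukaryotes) that ends in a box H/ACA gene. It had 491, 551, 315 and 491 CPM in wild type and 289 and 107.5 CPM in memory. Memory replicate 2 was far below the rest and memory replicate 1 just below the lowest wild type library, and the log2 fold change was -1.22 ± 0.44 (SE; edgeR, unadjusted p = 0.0319, adjusted p = 0.457).

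The duplicate of that run, AtU31b to AtsnoR5b at chr1:10308574-10309853, had 167, 191, 110 and 175 CPM in wild type and 82.8 and 53.2 CPM in memory. Both memory libraries were again below all wild type libraries, with a log2 fold change of -1.24 ± 0.30 (SE; edgeR, adjusted p = 0.379). The copies are not independent. AtU51a and AtsnoR5a had almost no unique 24-base word (0.00% and 0.85% of them), so their reads can be placed at either run.

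The snoR121 cluster, at chr3:5386304-5387416, lay over an exon of AT3G15920, and the snoRNA gene covered only 7.64% of it. It had 520.5, 388, 335 and 476 CPM in wild type and 199 and 116 CPM in memory. The memory libraries were well below the wild type libraries, with a log2 fold change of -1.45 ± 0.31 (SE; edgeR, unadjusted p = 0.00287, adjusted p = 0.323). DESeq2 gave an adjusted p of 0.000355.

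The cluster of AT2G20721, AT2G20722 and AT2G20723, whose box C/D sequences stand above, lay at chr2:8930699-8932508, clear of protein-coding genes. Its level was 40.5, 40.1, 45.1 and 46.2 CPM in wild type and 23.6 and 22.4 CPM in memory. The libraries of each group were close to each other and the groups were far apart. The log2 fold change of -0.90 ± 0.13 (SE; edgeR, unadjusted p = 0.000432, adjusted p = 0.211) had the smallest p of the snoRNA gene clusters. DESeq2 gave an adjusted p of 0.000146. All 24-base words of its genes were unique in the genome, but the genes covered only 13.3% of the cluster.

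AtsnoR29-1, SNOR30 and AtsnoR31, another run of box C/D genes clear of protein-coding genes, shared the cluster at chr5:20795565-20796373. It had 107, 103, 97.5 and 111 CPM in wild type and 64.9 and 65.9 CPM in memory, again in tight and separate groups. The log2 fold change was -0.68 ± 0.12 (SE; edgeR, adjusted p = 0.294). The genes were unique in all 24-base words and covered 39.8% of the cluster.

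Further clusters of several genes had the same order of groups. AtsnoR6-3 to AtsnoR134-3 (chr4:1445205-1446345) had 58.3, 67.1, 48.6 and 50.1 CPM in wild type and 35.2 and 26.2 CPM in memory. The cluster of snoR149 and snoR158a had 54.2, 49.9, 44.3 and 43.8 CPM in wild type and 35.2 and 23.5 CPM in memory. AtsnoR106 and AtsnoR106b had 48.8, 42.4, 43.13 and 46.4 CPM in wild type and 34.3 and 33.0 CPM in memory. None of these 3 had overlapping groups, and their log2 fold changes were -0.87, -0.71 and -0.42. AT2G35382 to AtU61 had 47.7, 62.5, 23.5 and 45.2 CPM in wild type and 12.0 and 19.5 CPM in memory. This was a log2 fold change of -1.52 ± 0.43 (SE; edgeR, adjusted p = 0.437). The cluster of AtU65-2 and AtU49-2 differed from these. It had 61.0, 65.5, 56.5 and 58.2 CPM in wild type and 37.5 and 58.6 CPM in memory, so that the groups overlapped.

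At lower levels, 3 clusters were named by a rule that required a large change and separate groups. AtsnoR13-1 to At58Y-1 had 10.1, 11.5, 4.36 and 6.35 CPM in wild type and 3.67 and 3.11 CPM in memory. The cluster with AtsnoR13-2 had 6.88, 8.16, 3.66 and 6.26 CPM in wild type and 2.89 and 1.80 CPM in memory. AT1G19373, a gene alone in its cluster, had 1.35, 2.60, 0.871 and 1.85 CPM in wild type and 0.469 and 0.491 CPM in memory. Groups did not overlap in any of the 3, which that rule had set in advance. The next cluster was named by the same rule. At snoR122 to snoR115-2 wild type replicate 2 stood far above the rest, with 14.8, 51.8, 20.3 and 19.8 CPM in wild type and 9.46 and 6.87 CPM in memory. The AtsnoR24 run (AtsnoR24a to AtsnoR24d) had 12.2, 10.7, 10.2 and 13.8 CPM in wild type and 6.33 and 5.07 CPM in memory, and was 1 of the 8 that DESeq2 called.

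Other snoRNA gene clusters had higher memory values or overlapping groups. With 48 of 112 tested clusters lower without overlap and 2 higher, overlapping groups were the more frequent case. AtsnoR93, inside an intron of AT3G09440, had 10.3, 6.86, 7.67 and 9.70 CPM in wild type and 14.2 and 12.1 CPM in memory. The log2 fold change was 0.61 ± 0.24 (SE; edgeR, unadjusted p = 0.0423, adjusted p = 0.458), and its gene covered 4.15% of the cluster. The Ath-127bsnoR76 cluster, which also lay at the miRNA gene AT1G78206, had 342, 251, 436 and 376 CPM in wild type and 364 and 420.5 CPM in memory. Without the 3 clusters that also lay at miRNA genes, the ratio of the snoRNA shares was 0.456 rather than 0.521. The narrow snoR130 cluster had 1.15, 2.81, 0.697 and 0.705 CPM in wild type and 2.19 and 1.47 CPM in memory. The widest cluster, at AtsnoR75, was 13986 bases wide with 0.136% covered by the gene, and had 5.19, 7.07, 5.23 and 5.11 CPM in wild type and 2.42 and 5.40 CPM in memory.

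The AtsnoR43.11 cluster varied widely between wild type plants. This narrow cluster held counts of 8696, 2333, 433 and 0 in wild type and of 0 and 373 in memory. A library at 0 was found in both groups, and the log2 fold change of -2.71 ± 2.86 (SE; edgeR, adjusted p = 0.747) was smaller than its error. All 24-base words of the gene were unique in the genome. However, the gene covered 55.1% of the cluster, which also lay at AT1G04543, a gene annotated as miscellaneous RNA.

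**Figure D4:**
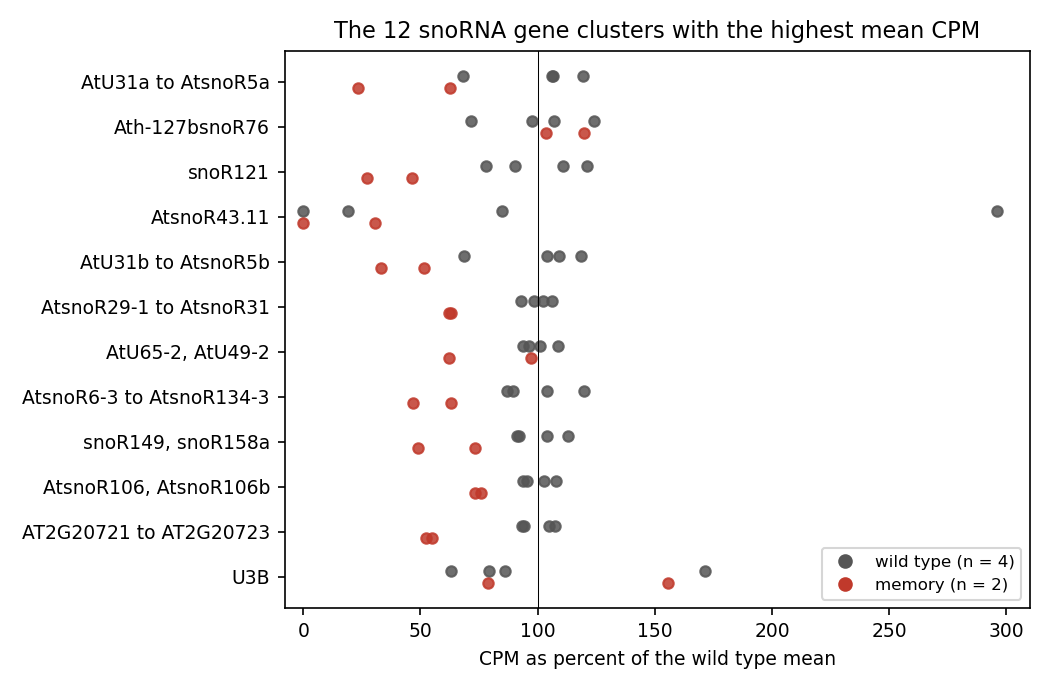
Level of the 12 snoRNA gene clusters with the highest mean CPM, as percent of the wild type mean, in 4 wild type libraries (grey) and 2 memory libraries (red). In 8 of the clusters, such as AT2G20721 to AT2G20723, both red points lie left of all grey points, while Ath-127bsnoR76, AtsnoR43.11, AtU65-2 and U3B overlap.

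Both genes annotated as U3 lay in clusters, and U3D, the one with fewer counts, had separate groups. The stretches of U3D and U3B that align are shown because their near identity bears on how reads were divided. Capitals in U3B mark the bases that differ from or have no partner in U3D, and 241 of 246 alignment columns were identical.
U3D (chr5:21945377-21945620, minus strand): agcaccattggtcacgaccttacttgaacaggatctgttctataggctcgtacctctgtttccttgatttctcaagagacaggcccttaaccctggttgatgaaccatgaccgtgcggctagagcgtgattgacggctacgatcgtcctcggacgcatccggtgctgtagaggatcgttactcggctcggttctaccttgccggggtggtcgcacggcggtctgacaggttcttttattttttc
U3B (chr5:21888279-21888524, plus strand): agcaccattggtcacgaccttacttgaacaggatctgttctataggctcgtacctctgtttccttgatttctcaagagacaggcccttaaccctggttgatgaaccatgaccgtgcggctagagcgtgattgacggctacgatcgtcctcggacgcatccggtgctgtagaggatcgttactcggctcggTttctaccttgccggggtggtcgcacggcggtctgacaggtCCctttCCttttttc
The U3D cluster held counts of 103, 120, 100 and 83 in wild type and of 10 and 0 in memory. This was a log2 fold change of -4.08 ± 0.86 (SE; edgeR, unadjusted p = 0.00282, adjusted p = 0.321; DESeq2, adjusted p = 2.23e-07). The U3B cluster held counts of 431, 295, 664 and 303 in wild type and of 341 and 321 in memory, and its groups overlapped. Summed over the 2 clusters the U3 level was 36.0, 29.96, 66.6 and 34.0 CPM in wild type and 27.4 and 52.5 CPM in memory, with overlap. Because reads from the shared sequence can be placed at either copy, the low U3D counts are uncertain as a measure of that gene.

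The snRNA genes were first checked against their names. Of 76 genes named U1, U2, U4, U5 or U6, 42 shared at least 16 bases in a row with another gene of the same name, and 37 of these lay in member clusters. The other 34 shared none, and 5 of these lay in member clusters (U1.3, U5.4, U5.8, U6.7 and U6.8p). The upstream sequence element core (CCCACATCG, on either strand, from 250 bases before to 50 after the start) was found at 30 of 82 snRNA genes, at 29 of the 46 in member clusters and at none of the 34 that shared no sequence. Without those 5 clusters the median log2 fold change of the 35 tested snRNA gene clusters was -0.17. It was found at 0.282% of all promoters of the same length and at 1.39% of snoRNA gene promoters, U3D among them. The AAACCCTA motif was found at 27.5% of snoRNA gene promoters and 6.17% of all promoters. A match is a description of the letters and not of a site in use.

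The genes U4.2 and U2.10b/12 lay in snRNA gene clusters with few counts in memory. Their promoters, from 100 bases before to 10 after the start, are shown with the upstream element core and TATAAA, on either strand, in capitals.
U4.2 promoter (chr3:2178334-2178443, minus strand): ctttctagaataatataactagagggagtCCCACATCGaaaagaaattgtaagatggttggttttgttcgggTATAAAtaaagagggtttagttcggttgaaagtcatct
U2.10b/12 promoter (chr2:852760-852869, plus strand): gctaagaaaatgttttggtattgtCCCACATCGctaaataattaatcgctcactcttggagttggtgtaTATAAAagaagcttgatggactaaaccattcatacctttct
Both windows hold the element upstream of the start and TATAAA on the strand of the gene. TATAAA itself was found at 48.8% of all promoters.

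U4.2, a copy of the snRNA that pairs with U6 before splicing, had both memory libraries far below wild type. Its cluster (chr3:2178045-2178337) held counts of 80, 93, 72 and 48 in wild type and of 6 and 6 in memory. The log2 fold change was -3.01 ± 0.45 (SE; edgeR, unadjusted p = 0.000434, adjusted p = 0.211; DESeq2, adjusted p = 5.88e-05). The gene is shown after U4.5, with capitals at bases that differ from or have no partner in U4.5. Of 156 alignment columns, 145 were identical, and 1.54% of the 24-base words of U4.2 were unique in the genome.
U4.5 (chr5:8972466-8972618, minus strand): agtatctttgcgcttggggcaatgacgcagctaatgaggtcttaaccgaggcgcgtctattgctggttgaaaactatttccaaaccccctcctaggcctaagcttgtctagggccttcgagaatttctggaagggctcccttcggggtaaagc
U4.2 (chr3:2178191-2178343, minus strand): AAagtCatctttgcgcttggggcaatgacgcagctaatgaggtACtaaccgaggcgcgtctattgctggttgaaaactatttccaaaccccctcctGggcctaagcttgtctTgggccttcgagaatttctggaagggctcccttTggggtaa
The U4.5 gene shared a cluster with U1.4, which had 60.1, 34.1, 61.7 and 62.3 CPM in wild type and 31.2 and 50.9 CPM in memory, with overlap. The U4.8 and U1.9 genes, also in 1 cluster, had 30.01, 9.38, 30.7 and 24.2 CPM in wild type and 10.6 and 7.196 CPM in memory, and their groups overlapped at wild type replicate 2. Summed over the 6 clusters with a U4 gene, some of which also hold a U1 gene, the level was 110, 76.6, 144 and 124 CPM in wild type and 67.9 and 83.6 CPM in memory.

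U2.10b/12, a copy of the branch point snRNA, held counts of 44, 88, 61 and 28 in wild type and of 0 and 1 in memory. The ratio of the summed counts per library size was 0.0123 (95% exact interval 0.000311 to 0.0694, counting error alone), with an adjusted p of 0.291 in edgeR and 0.00278 in DESeq2. Only 9.88% of its 24-base words were unique. The nearby copy U2.10, with 13.95% unique, went the other way. It held counts of 0, 10, 20 and 0 in wild type and of 36 and 5 in memory, with overlap in CPM. Summed over the 11 clusters with a U2 gene the level was 95.2, 55.5, 71.5 and 66.6 CPM in wild type and 77.2 and 82.1 CPM in memory, so that the low copy is not seen in the sum. U2.1, the U2 cluster with the highest level, had 19.8, 8.88, 17.7 and 11.2 CPM in wild type and 16.6 and 23.4 CPM in memory.

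The 2 highest snRNA gene clusters lay at genes of U6, the snRNA of the catalytic centre, and their groups overlapped. The U6.6 gene covered 11.6% of its cluster. The U6-29 gene is annotated as 912 bases, of which 104 lie in stretches shared with another U6 gene. Counts at either cluster can therefore include more than U6 RNA. The U6.6 cluster had 158, 126, 182.5 and 118 CPM in wild type and 100 and 159 CPM in memory. The U6-29 cluster had 88.5, 142, 116 and 109 CPM in wild type and 105 and 169 CPM in memory. The U6.5 cluster had 69.9, 84.9, 73.0 and 86.8 CPM in wild type and 67.1 and 74.9 CPM in memory. The U6.5 gene covered 5.31% of this cluster, which also lay at AT4G33080 and AT4G33090. The U6-26 cluster, in contrast, held counts of 226, 311, 0 and 365 in wild type and of 0 and 0 in memory. Against the floor of 3 counts in each memory library the wild type mean was at least 48.2-fold higher, but wild type replicate 3 was at 0 as well, so the groups overlap. No 24-base word of the U6-26 gene was unique, so its counts depend on where reads that match several U6 copies were placed. Summed over the 8 clusters with a gene named U6 the level was 441, 477, 485 and 452 CPM in wild type and 384 and 523 CPM in memory, and the groups overlapped. Of these genes, U6.7 and U6.8p share no 16 bases in a row with another U6 gene, so the sum is not a level of U6 alone. The U6.7 cluster had 97.4, 93.0, 101 and 86.9 CPM in wild type and 102 and 110 CPM in memory.

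**Figure D5:**
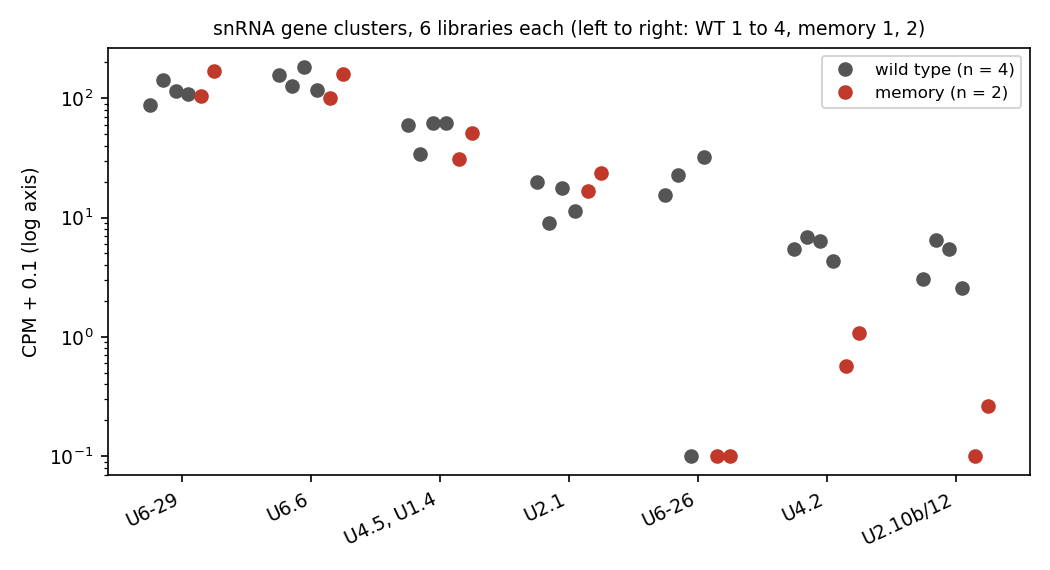
Level of 7 snRNA gene clusters in each library, on a log axis as CPM + 0.1, so that a cluster with no counts stands at 0.1. The U6-29, U6.6, U4.5 with U1.4, and U2.1 clusters overlap between wild type (grey) and memory (red), U4.2 and U2.10b/12 are separate, and U6-26 is at 0 in both memory libraries and in wild type replicate 3.

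At U1 genes the groups overlapped at U1.5 and were separate at U1.11p. U1.5, a gene that covers 10.8% of a cluster also at AT1G08110, had 32.4, 36.2, 15.4 and 19.9 CPM in wild type and 29.5 and 34.5 CPM in memory. U1.11p, a gene that covers 11.3% of its cluster, had 14.8, 9.53, 12.7 and 17.3 CPM in wild type and 7.502 and 7.524 CPM in memory. This was a log2 fold change of -0.85 ± 0.28 (SE; edgeR, adjusted p = 0.452). The U5.8 cluster was the only snRNA gene cluster higher in memory at an unadjusted p below 0.05, with 68.4, 63.2, 70.8 and 71.2 CPM in wild type and 111 and 128 CPM in memory. Its log2 fold change was 0.81 ± 0.12 (SE; edgeR, unadjusted p = 0.000534, adjusted p = 0.226; DESeq2, adjusted p = 2.65e-05). However, the annotated gene shares no 16 bases with another U5 gene and covers 1.41% of a cluster 6799 bases wide that also takes in 2 protein-coding genes and a pseudogene, so the value cannot be assigned to a U5 RNA. The U6.7 and U5.4 clusters, 8763 and 5853 bases wide, were of the same kind and had log2 fold changes of 0.17 and 0.05.

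The snRNAs of the minor spliceosome, U12, U4atac and U6atac, had low levels. The 2 clusters with a gene named U12 summed to 20.6, 16.6, 15.6 and 19.8 CPM in wild type and 15.2 and 17.3 CPM in memory. These 2 genes share no 16 bases in a row, so the sum cannot be assigned to U12 RNA. The AT1G61275 cluster had 10.8, 8.37, 9.15 and 12.6 CPM in wild type and 7.03 and 10.8 CPM in memory. The AT1G08367 cluster had 9.85, 8.23, 6.45 and 7.23 CPM in wild type and 8.21 and 6.54 CPM in memory. U4atac had 4.18, 3.90, 3.75 and 4.14 CPM in wild type and 3.52 and 4.58 CPM in memory. U6atac had 1.28, 0.866, 1.66 and 1.68 CPM in wild type and 1.41 and 1.31 CPM in memory. Groups overlapped at all 3.

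Of 22 listed loci for proteins of these particles, 9 had a cluster that shared at least 1 base with the gene. There were 16 such clusters in all, of which 14 were tested. At an adjusted p below 0.05, 0 were called by edgeR (0 by DESeq2). At an unadjusted p below 0.05, 3 were higher in memory (4.92% of all tested clusters were) and 0 lower (5.56% were), at FIB2 (fibrillarin, the methyltransferase of box C/D particles), at U2A' (a U2 protein) and at PRP8 (the U5 scaffold protein). Their log2 fold changes were 0.81, 1.22 and 1.06. Among the tested clusters, 4 had a log2 fold change below 0 and 10 above. The FIB1 and FIB2 genes each hold a snoRNA in an intron, and these clusters are members. The FIB1 one (U60.1F) held counts of 22, 28, 13 and 20 in wild type and of 13 and 4 in memory, without overlap in CPM, and the FIB2 one (U60.2F) held counts of 7, 25, 15 and 10 in wild type and of 20 and 4 in memory, with overlap.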

How the data were processed

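Each deposited table gave raw counts of sRNA reads for every cluster, which the authors had not scaled between libraries. sRNA was extracted as total small RNA and sequenced in single-end runs of 50 bases. Per the methods of the study, libraries were aligned one by one to TAIR10 with ShortStack, and the alignments were merged with SAMtools. How clusters were defined and reads counted is not given in the sources used here. A read that matches several sites is placed by the unique reads nearby, so counts at near-identical genes depend on that placement. The 6 tables listed the same 17131 intervals.

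Genes and sequences are from RefSeq on TAIR10.1, whose chromosome lengths are in keeping with the intervals (the last one of chromosome 4 ends at its final base, 18585056). Counts were tested with edgeR 4.0.16 (R 4.3.3), using TMM scaling, filterByExpr, group as the only term and adjustment over all tested clusters by the method of Benjamini and Hochberg. DESeq2 1.42.0 was an alternative. SEs were approximated as the size of the log2 fold change over the root of the F statistic. The groups have 4 and 2 plants, and p-values measure the spread between these plants. Shares were compared with an exact permutation test in scipy over 15 splits. The floor of 3 counts was 0.202 to 0.491 CPM. The test was checked on simulated counts.

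Members, gene lists and named clusters were chosen with earlier results of these data known. Named clusters were up to 10 snRNA and 12 snoRNA gene clusters with the highest mean CPM, up to 6 and 8 in each direction with the largest change among those with a mean of at least 1 CPM, an unadjusted p below 0.05 and separate groups, the 3 narrowest and 3 widest, and clusters with 2 or more genes, of which the AtsnoR24 run was the only one named on that ground alone. It was chosen after its values were seen. U6-26, U60.1F, U60.2F and the minor spliceosome clusters were added after their values were seen. Clusters named for the size of their change have separate groups by that rule, so their separation is not a separate result. Alternatives were other scalings, DESeq2, no filter, other memberships, leaving out each library, and a block on the replicate number. Leaving out clusters at miRNA genes, leaving AtsnoR43.11 out of the clusters covered to at least 50% and the check of snRNA names were added after seeing the data. The sequence of U6 is not reported here.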

Additional observations from a re-analysis of the deposited data

Results flagged for a closer look

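In 3 of the 39 values examined in the 4 wild type libraries, a single library lay far from the others by Dixon's gap ratio, which chance alone gives in about 1 in 20 groups. At the snRNA gene cluster of U4.5 and U1.4, wild type replicate 2 was low, with 34.1 CPM beside a mean of 61.4 CPM in the other 3 (gap ratio 0.921). At the snoRNA gene cluster of snoR122 to snoR115-2, wild type replicate 2 was high, with 51.8 CPM beside a mean of 18.3 CPM (gap ratio 0.851). At the AtsnoR75 cluster, wild type replicate 2 was again high, with 7.07 CPM beside a mean of 5.18 CPM (gap ratio 0.942). The shares of library counts at snoRNA and snRNA genes had no such library.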

How the results depend on the processing

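The median log2 fold change of snoRNA gene clusters stayed below 0 in all settings. It was -0.72 with scaling by library size alone, -0.38 when only the 11 clusters covered to at least 50% were kept, and -0.71 to -0.45 when 1 library was left out. The snRNA median was -0.36 by library size alone and turned to 0.13 with the 7 clusters covered to at least 50%. Among the 7 were those of U2.6, U2.2, U2.3, U2.7 and U6-29, whose annotated genes are 551 to 912 bases long. Only 104 to 298 of those bases lie in stretches shared with another gene of the same name. The covered share is thus not a measure of snRNA sequence in these clusters. With only clusters covered to at least 50%, the ratio of snoRNA shares was 0.354 and the groups overlapped (wild type 0.0567%, 0.0325%, 0.0193% and 0.0115%, memory 0.00881% and 0.0124%). This value rests on AtsnoR43.11, without which the other 10 gave a ratio of 0.700, also with overlap, and a median of -0.37. Over all snoRNA gene clusters the ratio was 0.406 to 0.636 when 1 library was left out. The number of clusters called in all was 7 by library size alone, 2 with rRNA and tRNA gene clusters left out of the scaling, 245 with DESeq2, of which 8 were at snoRNA and 3 at snRNA genes, and 0 to 9 when 1 library was left out. With the replicate block on the 4 libraries numbered 1 and 2 it was 0, and 0 in the same libraries without the block, a fit added after seeing the data. The correlation of deviations from the group means was -0.028 and -0.098 for same-numbered plants. The deviations of the 2 memory libraries mirror each other, so these values cannot decide whether the numbers pair plants. With 1 memory library left out, the lone one is assumed to vary like the wild type. Of 37 named clusters, 8 changed sign in some setting and 11 passed an adjusted p of 0.05 with DESeq2. The 37 leave out U2.10, U60.2F and the minor spliceosome clusters, some with log2 fold changes near 0. With 1 library left out, U6.6 ranged from -0.55 to 0.13, U6-29 from -0.12 to 0.58, U5.4 from -0.016 to 0.12 and U3B from -0.34 to 0.65, with the ends at memory replicates 1 and 2. By library size alone, U6-29 was -0.034, U6.7 -0.060, Ath-127bsnoR76 -0.071, U3B -0.074 and U5.4 -0.17. U1.5 was -0.10 with the block and -0.10 without it in the same libraries. U5.4 was -0.061 with the block and -0.060 without it in the same libraries, and snoR130 was -0.10 in the same 4 libraries without the block. Most clusters take in more than the annotated genes, near-identical copies share reads, and with 2 memory plants of 1 family the calls rest on few values.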
